A study of Homo sapiens with 4 samples.

Results

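The genes described here are 34 genes of the cellular response to amino acid shortage and to unfolded protein in the endoplasmic reticulum, followed in 2 leukemia cell lines treated with the kinase inhibitor STI571 (imatinib). They were chosen by name, with earlier results of these data known. Of them, 22 belong to the ATF4 arm, the genes switched on by the transcription factor ATF4. The other 12 belong to the endoplasmic reticulum arm, the chaperones and degradation factors of the unfolded protein response. The array's annotation named a member for 55 probe sets, of which 52 carried that symbol alone and were used; the other 3, for HSP90B1 and PHGDH, also carried the symbol of another gene. All 34 genes passed the filter on low signals and were compared among the 7916 genes of the whole array that did so. A probe set is the group of short oligonucleotides that measures a transcript, and its value is a signal intensity on the linear scale deposited by the authors.

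The arrays came from BV-173 and SUP-B15, established human cell lines that the series describes as acute lymphoblastic leukemia with the Philadelphia chromosome, the source of the BCR-ABL1 kinase that STI571 blocks. Each line was profiled without STI571 and after 16 h with 10 μmol/l of it, and the labels name no vehicle for the untreated cultures. There was 1 array in each of the 4 groups, so no group has a replicate, and so small a number of arrays sets the precision of each value. All 4 groups carry BCR-ABL1, and a line without it is not among them. In bulk RNA from a culture, fewer cells of a kind and less RNA per cell cannot be told apart.

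Cells sense a lack of amino acids through the kinase GCN2 and unfolded protein in the endoplasmic reticulum through PERK, IRE1 and ATF6. GCN2 and PERK both phosphorylate the initiation factor eIF2, which lowers protein synthesis in general but favours translation of ATF4. ATF4 then raises genes for amino acid uptake, amino acid synthesis and tRNA charging, and, when stress lasts, the pro-apoptotic factor CHOP, which DDIT3 encodes. IRE1 and ATF6 act through XBP1 and ATF6 itself on chaperones such as BiP, encoded by HSPA5. B lineage cells depend on this machinery when they fold immunoglobulin, and ATF4 protein is set largely by translation, which an RNA array does not read.

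The median signal lay between 95.5 and 115 over the 4 arrays, and the mean of the 3 control probe sets for 18S ribosomal RNA reached 2817 in treated BV-173, where the other arrays had 1513 to 1596. Every response of BV-173 below rests on that treated array, and the part of its 18S signal in them was not tested. Of the B precursor markers fixed for the check, all 6 with a probe set of their own (such as PAX5, VPREB1 and DNTT) reached the array's median signal in all 4 arrays. Of 4 T cell, 4 myeloid and 1 erythroid markers, 0 did so in all 4, though the myeloid markers MPO and CSF1R and the erythroid marker HBB did in 1 or 2 arrays. A response is the treated minus the untreated value of log2(signal + 24.5) within a line, a scale that understates the change of dim genes. A gene is called where limma's moderated test of the mean response of both lines gave an adjusted p under 0.05. With 1 residual degree of freedom, that test takes its error from the trend of spread with brightness over all genes and not from a gene's own spread.

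Over both lines, 3 of the 34 stress genes were called for STI571, all of them higher and all in the ATF4 arm: DDIT3, SLC7A11 and ATF5. Of all 7916 genes, 1.4% were called higher and 1.62% lower, 3.02% in either direction. In the endoplasmic reticulum arm 0 of 12 genes were called by limma, where 1 was higher and 2 were lower at an unadjusted p under 0.05. Among the members of both arms 0 were called lower, with 3 lower at an unadjusted p under 0.05. The calls belong to the mean of both lines and depend on the variance model: without the intensity trend, or without the cell line as a block, limma called 0 of the 34, with 3 and 1 at an unadjusted p under 0.05. In both settings it also called 0 of all 7916 genes, with 658 and 70 at an unadjusted p under 0.05. In SUP-B15, 4 members were at least 2-fold higher after STI571 (DDIT3, SLC7A11, DNAJB9 and TRIB3) and 0 were 2-fold lower, against 4.08% and 5.68% of all genes. In BV-173, 0 were 2-fold higher and 1, HSPA5, was 2-fold lower, against 6.91% and 4.6% of all genes.

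**Figure D1:**
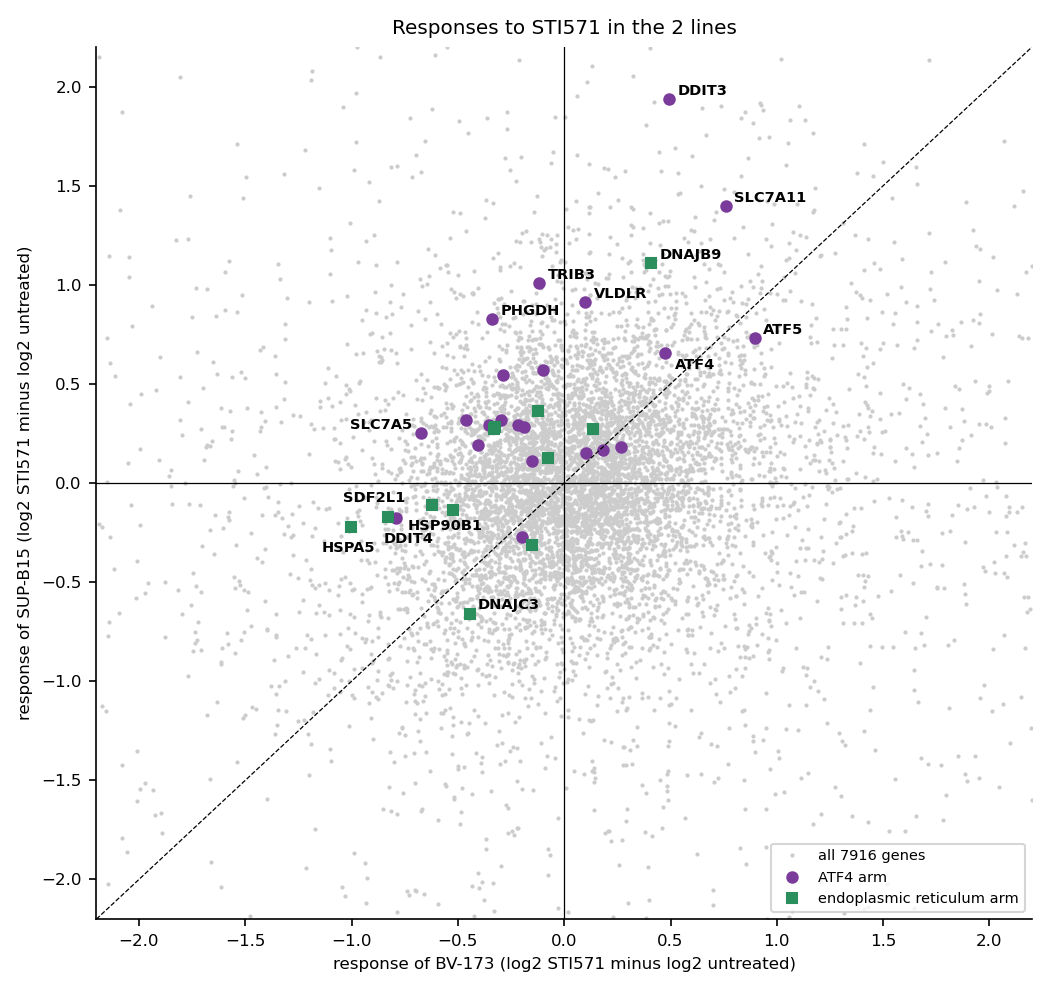
Response to STI571 in BV-173 (x axis) and in SUP-B15 (y axis), each as treated minus untreated log2(signal + 24.5), with 1 point per gene; grey points are all genes, circles the ATF4 arm, squares the endoplasmic reticulum arm, and the dashed line marks equal responses. The axes end at 2.2 in each direction, which leaves 121 of the 7916 genes outside; 28 of the 34 members lie above the dashed line, and 16 lie at the upper left, lower in BV-173 and higher in SUP-B15.

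In each arm the median response was lower in BV-173 than in SUP-B15. For the ATF4 arm it was −0.17 in the former and 0.31 in the latter, and for the endoplasmic reticulum arm −0.33 and 0.0085. The medians of all genes were 0.046 and −0.015. In SUP-B15, 20 of 22 genes of the ATF4 arm had a positive response, against 48.6% of all genes (51.3% were negative), and 6 of 12 of the endoplasmic reticulum arm. In BV-173, 10 of 12 genes of the endoplasmic reticulum arm had a negative response, against 46.4% of all genes (53.6% were positive), and 14 of 22 of the ATF4 arm. These counts describe single pairs of arrays, and the difference between the arms was not tested. Scaling the arrays to a common median moved the median of all genes to −0.11 and 0.085, and that of the ATF4 arm to −0.34 and 0.41 (BV-173 first).

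**Figure D2:**
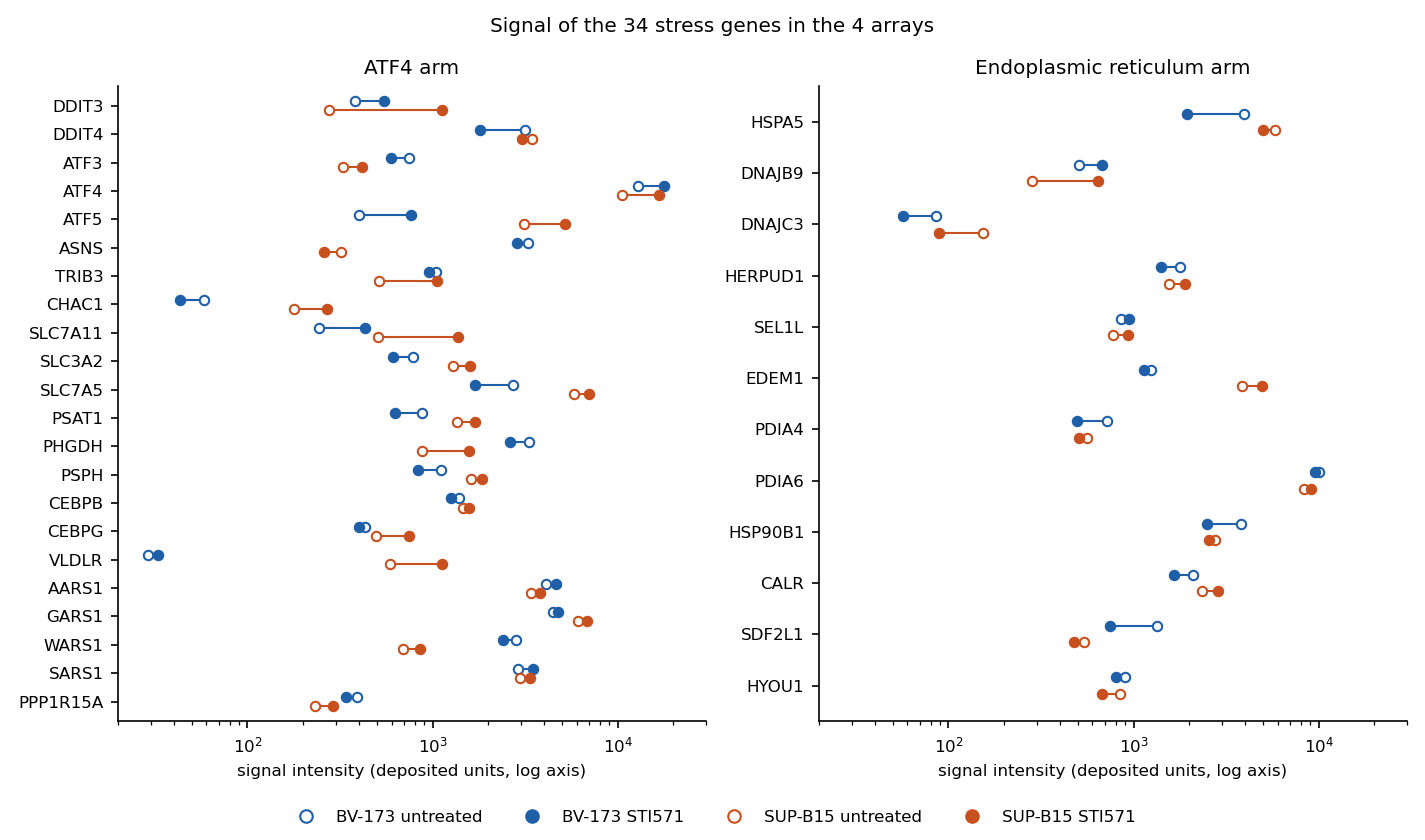
Signal intensity (log axis) of each stress gene in the 4 arrays, for the ATF4 arm on the left and the endoplasmic reticulum arm on the right; open circles are untreated and filled circles STI571-treated arrays, blue for BV-173 and orange for SUP-B15, joined within a line. Each point is 1 array, so there are no error bars; the longest orange line is that of DDIT3, from 276 to 1125.

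Among the transcription factors, DDIT3, which encodes the pro-apoptotic factor CHOP, had a signal of 382 without and 547 with STI571 in BV-173, and of 276 without and 1125 with it in SUP-B15; signals are given in that order throughout. Treated arrays were higher in both lines, and the untreated lines lay closer together than the treated ones. Its responses of 0.49 and 1.94 correspond to 1.41-fold and 3.83-fold, with a mean of 1.22 on the log2 scale (SE 0.26, limma adjusted p = 0.000452). ATF5, a close relative of ATF4 that is also translated preferentially under stress, had signals of 401 and 767 in BV-173 and of 3108 and 5171 in SUP-B15. All 4 arrays followed the order of line first and treatment second, without overlap between the lines. Its responses were 0.90 and 0.73 (mean 0.81, SE 0.21, limma adjusted p = 0.0085). The second probe set of ATF5 gave smaller responses of 0.085 and 0.48, and another, dim at 14.7 in untreated BV-173, gave 2.26 and −0.07. The call for ATF5 ended when the arrays shared a median (limma adjusted p = 0.143) and when its probe sets were averaged (0.195).

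ATF4 itself, the factor that gives the arm its name, had signals of 12855 and 17845 in BV-173 and of 10567 and 16684 in SUP-B15. Both treated arrays were above both untreated arrays. Its responses of 0.47 and 0.66 did not pass (adjusted p = 0.18), though they did with quantile normalization (0.0219). ATF3, a repressor and activator of the same family that is induced by ATF4, had 743 and 599 in BV-173 and 327 and 414 in SUP-B15. The 2 lines moved in opposite directions, by −0.30 and 0.32, and the mean was 0.0092 (adjusted p = 0.997). CEBPB, a partner and target of CHOP and ATF4, had 1393 and 1251 in BV-173 and 1458 and 1574 in SUP-B15. CEBPG, the C/EBP protein that binds DNA together with ATF4, had 431 and 400.1 in BV-173 and 497 and 750.0 in SUP-B15. For both C/EBP genes the untreated lines were close and the treated ones further apart, and neither was called (adjusted p = 0.99 and 0.842).

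Of the 4 feedback and effector genes 0 were called by limma, and 1, DDIT4, was lower at an unadjusted p under 0.05. TRIB3, a pseudokinase that CHOP and ATF4 induce and that restrains both AKT and ATF4, had 1044 and 961 in BV-173 and 514 and 1057 in SUP-B15. The treated SUP-B15 array came up to the level of both BV-173 arrays, a response of 1.01 against −0.12 (adjusted p = 0.431). CHAC1, which degrades glutathione, had 58.1 and 43.2 in BV-173, both below the array's median, and 178 and 270.5 in SUP-B15. DDIT4, an inhibitor of the mTORC1 kinase also known as REDD1, had 3159 and 1815 in BV-173 and 3436 and 3042 in SUP-B15, with responses of −0.79 and −0.17. It was lower in both treated arrays, unlike DDIT3 (adjusted p = 0.241). PPP1R15A, the phosphatase subunit that restores eIF2 function, had responses of −0.19 and 0.28, and its second probe set −0.35 and 1.13.

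The amino acid transporters differed among themselves. SLC7A11, the cystine-glutamate antiporter xCT that supplies cysteine for glutathione, had 245 and 432 in BV-173 and 507 and 1373 in SUP-B15. Treated arrays were higher in both lines, and treated BV-173 stayed below untreated SUP-B15. Its responses of 0.76 and 1.40 gave a mean of 1.08 (SE 0.26, limma adjusted p = 0.00267); a second probe set, with 0.70 and 0.80, had the same direction, and averaging its probe sets gave an adjusted p of 0.0639. SLC3A2, the heavy chain that SLC7A11 and SLC7A5 share, had 786 and 610 in BV-173 and 1296 and 1595 in SUP-B15. SLC7A5, the leucine transporter LAT1, had 2712 and 1691 in BV-173 and 5838 and 6957 in SUP-B15. Both of these had negative responses in BV-173 (−0.35 and −0.67) and positive ones in SUP-B15 (0.29 and 0.25), so the lines stood further apart after treatment than before. Neither was called for STI571 (adjusted p = 0.988 and 0.806).

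Of the 4 genes of amino acid synthesis 3 showed the same division, and 0 were called for STI571 at either an adjusted or an unadjusted p under 0.05. ASNS, asparagine synthetase and a standard ATF4 target, had 3276 and 2848 in BV-173 and 319 and 260.1 in SUP-B15. Its responses of −0.20 and −0.27 were small beside the gap between the lines. PHGDH, the first enzyme of serine synthesis, had 3305 and 2609 in BV-173 and 877 and 1577 in SUP-B15, a response of −0.34 against 0.83. PSAT1, the second enzyme, had 873 and 628 in BV-173 and 1358 and 1697 in SUP-B15. PSPH, the last enzyme, had 1111 and 834 in BV-173 and 1608 and 1841 in SUP-B15. The serine genes thus all had a lower signal in the treated than in the untreated BV-173 array, and the reverse in SUP-B15.

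The tRNA synthetase genes were steadier. AARS1, GARS1, WARS1 and SARS1, which charge tRNA with alanine, glycine, tryptophan and serine, had responses between −0.22 and 0.27 in BV-173 and between 0.15 and 0.30 in SUP-B15, and 0 were called or passed an unadjusted p of 0.05. WARS1, which is also an interferon-induced gene, was the synthetase gene called between the lines, with 2815 and 2416 in BV-173 and 694 and 857 in SUP-B15. GARS1, not called between the lines (limma adjusted p = 0.0622), passed with quantile normalization (0.0391) and with the filter at the 75th percentile (0.0411). VLDLR, a lipoprotein receptor gene that ATF4 induces, had 29.1 and 32.9 in BV-173 and 586 and 1125 in SUP-B15. In BV-173 it was near the added 24.5, and in SUP-B15 its response was 0.91 (adjusted p of the mean 0.722).

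ATF4 acts with C/EBP proteins on the composite C/EBP-ATF response element, searched here as TGATGNAA on both strands in the 250 bases upstream of each RefSeq start (GRCh38.p14). Promoter sequences were matched for 32 of the 34 members; those of SLC7A11 and PSPH were not searched. The element was found for 7 of these genes, in 7 of their 49 windows (14.3%), against 3.14% of all 35116 windows. They were 6 genes of the ATF4 arm (ATF3, ASNS, CHAC1, CEBPG, AARS1 and GARS1) and HERPUD1 of the other. Because the members were chosen by name as genes of these pathways, a share above that of all windows is a description and not independent evidence. The letters alone do not show a site. The cases below, each read along the gene with the match in capitals, are shown because they include a gene whose level set the lines apart (ASNS), a dim one (CHAC1) and one that varied little (AARS1).
ASNS: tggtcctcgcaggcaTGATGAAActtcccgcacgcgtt
CHAC1: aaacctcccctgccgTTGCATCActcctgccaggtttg
AARS1: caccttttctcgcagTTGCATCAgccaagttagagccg
They lie at chr7:97872454-97872491 (minus strand), chr15:40953247-40953284 (plus strand) and chr16:70289671-70289708 (minus strand), with the match beginning 68, 209 and 187 bases upstream of the start. In BV-173 the responses of the 7 genes ran from −0.33 to 0.18, and in SUP-B15 between −0.27 and 0.57. The windows of DDIT3 and ATF5, both called, held no match to these letters, and sequence beyond the 250 bases was not searched.

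In the endoplasmic reticulum arm, all 5 chaperone genes had a negative response in BV-173, and 4 of the 5 had one in SUP-B15. HSPA5, which encodes BiP, the main Hsp70 of the endoplasmic reticulum and a sensor of its folding load, had 3940 and 1952 in BV-173 and 5823 and 4986 in SUP-B15. Treated arrays were lower in both lines, with no overlap between the lines. Its responses of −1.0 (2.01-fold) and −0.22 gave a mean of −0.61 (SE 0.20, limma adjusted p = 0.0731), and with a filter at the 75th percentile it passed (adjusted p = 0.0407). SDF2L1, which works with BiP and its co-chaperones, had 1342 and 746 in BV-173 and 540.0 and 477 in SUP-B15. HSP90B1, which encodes the Hsp90 of this compartment, GRP94, had 3823 and 2479 in BV-173 and 2759 and 2557 in SUP-B15. Both resembled HSPA5 in having the larger negative response in BV-173, −0.83 and −0.62, and a smaller one in SUP-B15, −0.17 and −0.11. The second probe set of HSP90B1 gave −0.11 and −0.61, the opposite order. Neither was called (adjusted p = 0.357 and 0.497).

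CALR, the calcium-binding lectin chaperone calreticulin, had responses of −0.33 and 0.27; its other probe sets gave −0.13 and −0.91, and −0.73 and −0.08. HYOU1, a large Hsp70 relative that exchanges nucleotide on BiP, had −0.15 and −0.31. Of the disulfide isomerases, PDIA4 had −0.52 and −0.14 and PDIA6 −0.076 and 0.13, neither called (adjusted p = 0.722 and 0.99). The second probe set of PDIA4 gave −0.99 and −0.07. Every kept probe set of the chaperones and isomerases, further ones included, had a negative response in BV-173.

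The co-chaperones went separate ways. DNAJB9, an Hsp40 that returns IRE1 to its inactive state through BiP, had 504 and 678 in BV-173 and 284 and 641 in SUP-B15, with responses of 0.41 and 1.11 (adjusted p = 0.0929). Its second, dimmer probe set gave −0.39 and −0.067, so the direction differs between its probe sets. DNAJC3, an inhibitor of PERK and co-chaperone of BiP, was dim, with 85.7 and 56.5 in BV-173 and 154 and 88.6 in SUP-B15 (adjusted p = 0.842). The degradation genes, HERPUD1 and SEL1L of the HRD1 ubiquitin ligase complex and the mannosidase-like EDEM1, had responses between −0.33 and 0.13 in BV-173 and between 0.27 and 0.36 in SUP-B15. None of these 3 degradation genes was called for STI571 (limma adjusted p of 0.846 to 0.99), and 0 passed an unadjusted p of 0.05.

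Chaperone genes carry the endoplasmic reticulum stress element, searched as CCAAT and CCACG with any 9 bases between them, and its variant, searched as ATTGG and CCACG with any 1 base between them, on both strands of the same windows. The first occurred in 0.074% and the second in 0.0513% of all windows. Here too the members were chosen by name for this pathway, so the contrast with all windows is a description only. Among the members 4 genes held the first (HSPA5, HSP90B1, PDIA6 and CALR) and 3 the second (HYOU1, HERPUD1 and SDF2L1), all in the endoplasmic reticulum arm. The 4 cases below are shown because these genes include the strongest negative responses in BV-173 and HERPUD1, which holds elements of both arms.
HSPA5: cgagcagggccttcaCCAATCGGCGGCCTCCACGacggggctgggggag
HSP90B1: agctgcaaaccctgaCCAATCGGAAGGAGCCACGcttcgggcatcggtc
SDF2L1: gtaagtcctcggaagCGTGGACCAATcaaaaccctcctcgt
HERPUD1: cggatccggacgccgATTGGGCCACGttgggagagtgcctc
They lie at chr9:125241376-125241424 (minus strand), chr12:103930201-103930249, chr22:21642099-21642139 and chr16:56932010-56932050 (plus strand), and the matches begin 66, 194, 188 and 117 bases upstream of the start. HERPUD1 also holds the ATF4-type element 176 bases upstream, here on the reverse strand.
HERPUD1: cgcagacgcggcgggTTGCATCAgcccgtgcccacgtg
All 7 genes with the endoplasmic reticulum stress element or its variant had a negative response in BV-173, from −1.0 to −0.076 with a median of −0.33. Their whole arm had 10 of 12 genes negative there and the same median, and 46.4% of all genes were negative. Since these 7 genes are most of the 12, the whole arm is not a separate comparison. The arm's genes without either element, DNAJB9, SEL1L, EDEM1, DNAJC3 and PDIA4, had responses of 0.41, 0.13, −0.12, −0.44 and −0.52 in BV-173. A difference between genes with and without the element was not tested. In SUP-B15, 3 of the 7 were positive and 4 negative, from −0.31 to 0.28. The related letters TGACGTGG were found for HYOU1 alone among the members (0.612% of all windows), and TGACGTCA for PPP1R15A alone (1.65% of all windows). A match in the letters is a description, and binding was not measured.

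The level of the stress genes was called between the lines more often than their response was called. The same held for all genes, of which 28.7% were called between the lines and 3.02% for STI571. Over untreated and treated arrays together, limma called 15 of 34 members between SUP-B15 and BV-173, 10 higher in SUP-B15 and 5 higher in BV-173, where 28.7% of all genes were called, 14.4% in each direction. This test comes from the same fit and also takes its error from the trend over all genes. The untreated and treated arrays of a line are not replicates, so its p-values do not measure the spread between cultures. The share was 12 of 22 in the ATF4 arm and 3 of 12 in the endoplasmic reticulum arm. With gene-specific probe sets alone, which measured 19 members, the counts were 4 and 2, and 27.7% of all genes were called in either direction. Among brighter genes calls were more frequent. With the filter at the 75th percentile, which kept 31 members, the counts were 11 and 5, and 43.6% of all genes were called.

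VLDLR was 15.1-fold higher in SUP-B15 on the log2(signal + 24.5) scale (log2 difference 3.92, SE 0.39). Because BV-173 was dim, the difference became 4.67 with a pseudocount of 1 and 2.83 with one of 98, smaller in size than that of ASNS there (−3.03). ATF5 was 6.95-fold higher in SUP-B15 (2.80, SE 0.21), by 2.88 untreated and 2.71 treated, and EDEM1, which helps to send misfolded glycoproteins to degradation, was 3.63-fold higher (1.86, SE 0.21), with 1241 and 1136 in BV-173 and 3858 and 4968 in SUP-B15. In these 3 genes both SUP-B15 arrays were above both BV-173 arrays. CHAC1, SLC7A5, SLC7A11, SLC3A2, PSAT1, HSPA5 and PSPH were also called higher in SUP-B15, by log2 differences of 0.82 to 1.71 and limma adjusted p-values of 6.3e-13 to 0.00872. These include all 3 transporter genes. The call for PSPH rested on its probe set: another one gave 0.036 (limma adjusted p = 0.93 in the fit to gene-specific probe sets), and averaging both gave 0.43 (0.177).

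Of the members higher in BV-173, ASNS had the largest difference, 9.84-fold higher in BV-173 (log2 difference −3.30, SE 0.23, limma adjusted p = 9.61e-45). Over the processing settings limma's adjusted p for ASNS ran from 3.45e-45 to 0.0114. WARS1 followed at −1.73 and −1.06 on its second probe set. PHGDH was 2.46-fold higher in BV-173 over both conditions, by −1.88 untreated and −0.72 treated. Of the serine synthesis enzymes, then, PHGDH was higher in BV-173 and PSAT1 in SUP-B15, while the probe sets of PSPH differed. SDF2L1 (−0.95, adjusted p = 0.000606) and ATF3 (−0.82, adjusted p = 0.00951) completed the 5. ATF4, DDIT3, CEBPB and CEBPG were not called between the lines (limma adjusted p of 0.119 to 0.574).

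**Figure D3:**
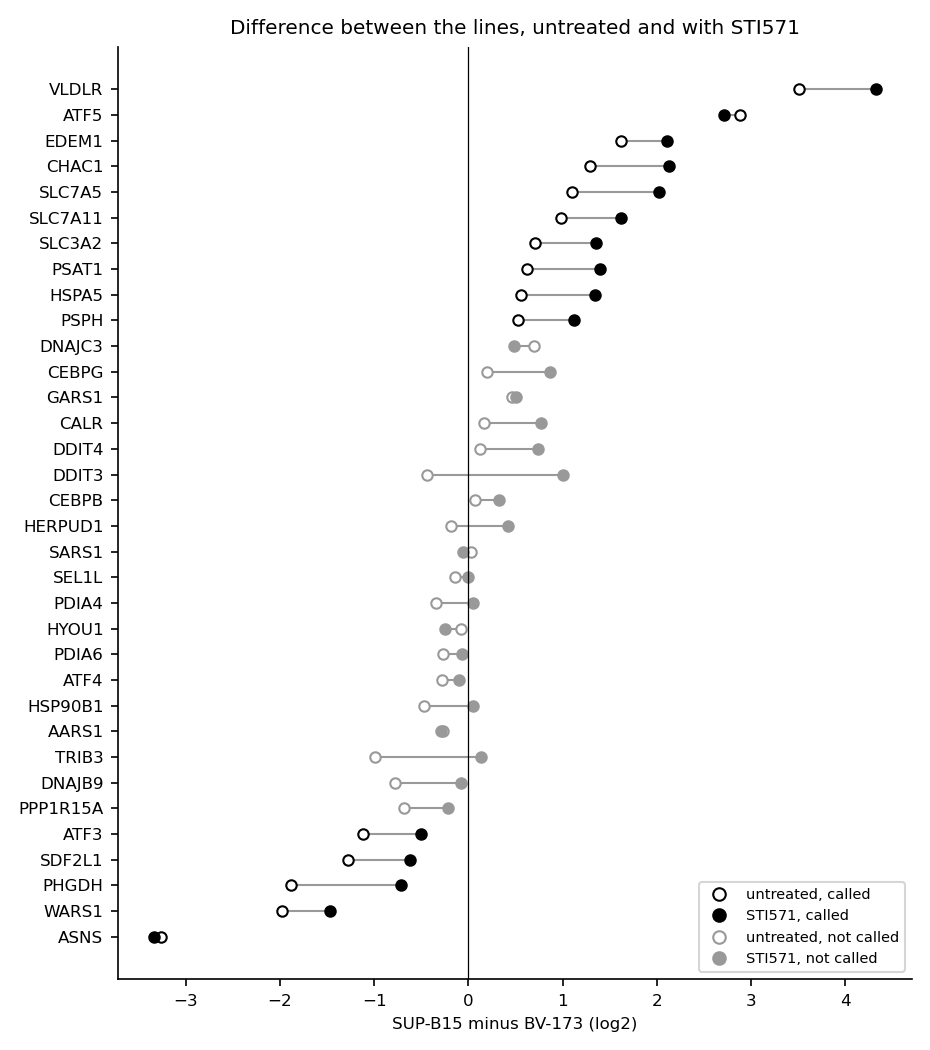
Difference between the lines (x axis, SUP-B15 minus BV-173 in log2(signal + 24.5)) for each of the 34 stress genes, ordered by the mean of both conditions; open circles compare the untreated and filled circles the treated arrays, and black marks the 15 genes that limma called between the lines. VLDLR at the top and ASNS at the bottom are the extremes, and for 28 genes the filled circle lies to the right of the open one.

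The response of SUP-B15 was above that of BV-173 for 28 of the 34 members, 18 of 22 in the ATF4 arm and 10 of 12 in the endoplasmic reticulum arm, where 45.6% of all genes had that order. The median difference between the responses was 0.60 over the members and −0.063 over all genes. With 16 members the response was negative in BV-173 and positive in SUP-B15, which 19.9% of all genes showed, and 0 members had the reverse, which 24.8% of all genes showed. The 6 members without that order were ATF5, ASNS, AARS1, SARS1, DNAJC3 and HYOU1, with differences of −0.21 to −0.014. DDIT3 (1.44), PHGDH (1.17) and TRIB3 (1.12) had the largest differences. This difference between the lines takes up the only residual degree of freedom, so it has no test, and all 34 values share the same 4 arrays. The members were chosen with earlier results of these data known, so these counts are a description only. The count was 28 with quantile normalization as well, against 48.2% of all genes, and 34 with a common median, against 62.7%.

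Of 11 members with more than 1 usable probe set, the 16 further probe sets had the sign of the one used in 15 cases in BV-173 and in 11 in SUP-B15. The signs between the lines were the same in 12 and differed in 4, namely DNAJB9, SEL1L and 2 of PDIA6, all of them genes not called.

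Genes of the same pathways from other lists put these members in context. Of the stress sensors and relays, 14 of 18 listed genes were measured above the filter, with 1 called higher and 0 lower. At an unadjusted p under 0.05, 2 were higher and 2 were lower. Of all genes, 1.4% were called higher and 1.62% lower. The called gene was EIF2AK3, the gene for the sensor kinase PERK, with 1339 and 2539 in BV-173 and 1957 and 4094 in SUP-B15. Both treated arrays were above both untreated ones, and the responses of 0.91 and 1.06 had a mean of 0.98 (SE 0.21, limma adjusted p = 0.000262). Without the intensity trend the adjusted p of EIF2AK3 was 0.555, and those of P4HB and MANF, described next among the endoplasmic reticulum genes, were 0.706 and 0.598; with the cell line term left out all 3 were at 1. XBP1, the target of IRE1, was named after its values were seen: it had 4370 and 2877 in BV-173 and 11655 and 12636 in SUP-B15, and was not called for STI571 (adjusted p = 0.766).

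Of 17 other ATF4-regulated genes and of 12 other cytosolic tRNA synthetases, 0 were called in either direction by limma, where 3.02% of all genes were. At so low a share, lists this short leave few calls to find. At an unadjusted p under 0.05, 2 of the first list were higher, 0 lower, and 0 of the second passed. Their medians were −0.076 in BV-173 and 0.07 in SUP-B15 for the first list, and −0.15 and 0.11 for the second. Of 21 other genes of folding, degradation and transport in the endoplasmic reticulum, 2 were called lower and 0 higher, against 1.62% and 1.4% of all genes. P4HB, the disulfide isomerase PDI, had 4122 and 1119 in BV-173 and 3315 and 3404 in SUP-B15, so its call (mean −0.91, SE 0.20, adjusted p = 0.000924) rests on BV-173. Its second probe set gave −0.56 and −0.099, and with the mean of both the adjusted p was 0.265. MANF, a secreted factor of the unfolded protein response, had 2668 and 1616 in BV-173 and 2173 and 1265 in SUP-B15 (responses −0.71 and −0.77, adjusted p = 0.019; 0.134 when the arrays shared a median and 0.0562 when probe sets were averaged). In BV-173, 3 of the 21 were at least 2-fold lower, P4HB, CRELD2 (1716 and 844) and ERO1B (77.6 and 9.7, dim), and 1 was 2-fold higher, ERO1A (71.8 and 180.1, dim), where 4.6% of all genes were lower and 6.91% higher. In SUP-B15, ERO1B went from 176 to 411, a response of 1.12 against −1.58 in BV-173, and WFS1 from 99.9 to 25.1 (dim); they were the 1 gene 2-fold higher and the 1 gene 2-fold lower there, where 4.08% and 5.68% of all genes were. CRELD2, ERO1B, ERO1A and WFS1 were named after their values were seen.

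**Figure D4:**
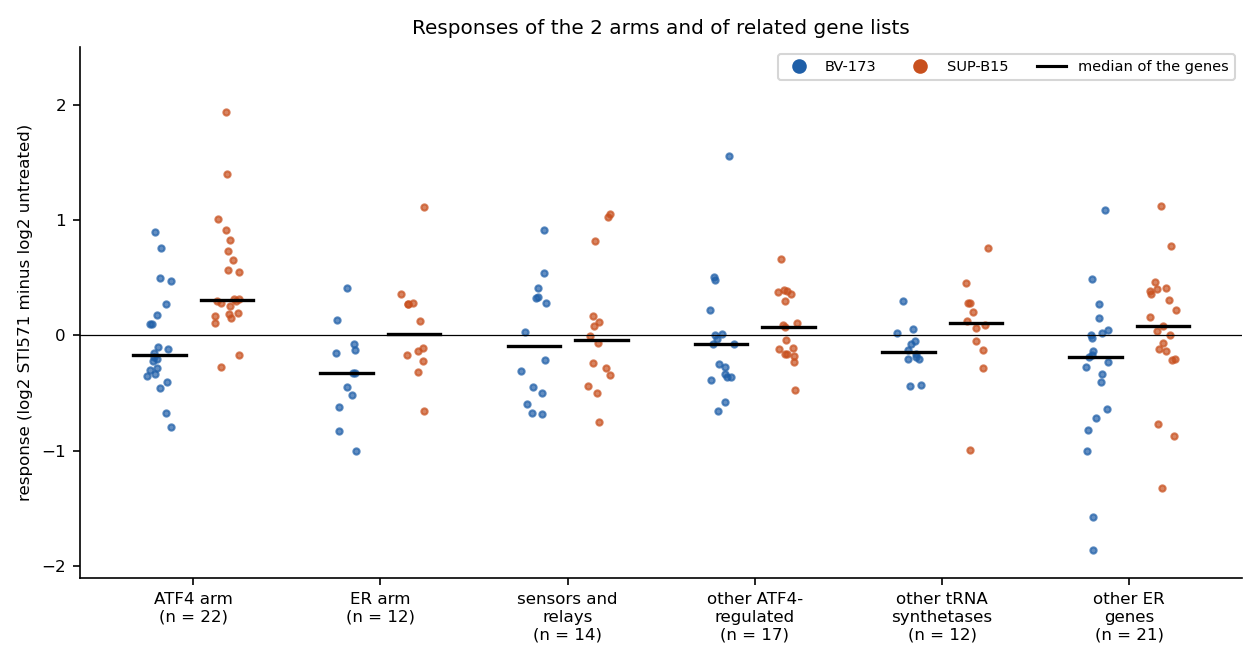
Responses (treated minus untreated log2(signal + 24.5)) of the genes of the 2 arms and of 4 lists of related genes, in blue for BV-173 and orange for SUP-B15; each point is a gene, points are spread sideways for legibility only, and the black bar is the median. The ATF4 arm has medians of −0.17 and 0.31, and the endoplasmic reticulum genes outside the arm reach down to −1.86 (P4HB) in BV-173.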

How the data were processed

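Signal intensities per probe set of 4 arrays were used as deposited by the authors, on a linear scale; the submitters' processing notes name GCOS 1.3. The 2%-trimmed mean was 500.2 in each column, and how probes were summarised, or to which target signals were scaled, is not given in the sources used here. Platform annotation gave 1 symbol for 19064 of 22277 probe sets, and those with several (1043) were not used; all 34 members matched RefSeq by Entrez ID. Probe sets below the 50th percentile in all 4 arrays were dropped, and the brightest one left stood for its gene. log2(signal + 24.5), the 25th percentile of all signals being added, was fitted with limma 3.58.1 (R 4.3.3) with cell line and treatment as terms. The fit used an intensity trend and Benjamini-Hochberg adjustment over 7916 genes, two-sided. It was also run on data simulated from the same model, which checks the code and not the error taken from the trend. The prior degrees of freedom were infinite. The cell line, from the labels, pairs the arrays, and no label says that they are separate cultures. The only residual of the fit is the difference in response between the lines, so its errors are not those of replicate arrays. The members, the arms and the related lists were chosen with earlier results of these data known. Values in every array are given for members called, changed 2-fold in a line, or among 6 transcription factors, and for others where a result needs them; of the related lists, up to 4 called genes each. Promoter windows come from RefSeq (GRCh38.p14).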

Additional observations from a re-analysis of the deposited data

Results flagged for a closer look

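The 2 probe sets of PSPH, the last enzyme of serine synthesis, differed in the size of an opposite response of the lines. The probe set not used for the gene had signals of 1121 and 705 in BV-173 and of 733 and 1136 in SUP-B15, at least 1.5-fold lower in one line and at least 1.5-fold higher in the other. The response of SUP-B15 minus that of BV-173 was 1.27 on the log2 scale, against 0.60 on the probe set used. The difference was not tested, since each group has 1 array.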

How the results depend on the processing

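The 3 calls for STI571 became 1 with the mean of probe sets, and 0 without the intensity trend and with no replicate block (the cell line term left out); the other alternatives gave 2 to 4, and the filter at the 75th percentile added 1 lower call. Over all genes the calls for STI571 went from 239 to 116 with the mean of probe sets, and to 0 without the trend or without the block. The 10 and 5 calls between the lines became 4 and 2 with gene-specific probe sets and 3 and 2 without the trend. Of all genes, 28.7% were called between the lines in the main fit, 27.7% with gene-specific probe sets and 7.95% without the trend. Members 2-fold higher in BV-173 (0) became 1 with the mean of probe sets and with every probe set; the 1 lower became 0 with quantile normalization and a pseudocount of 98; the 4 higher in SUP-B15 became 2 with a pseudocount of 98. At 1.5-fold the counts were 2 higher and 5 lower in BV-173 and 8 and 1 in SUP-B15; at 3-fold, 0 were lower in BV-173 and 1 higher in SUP-B15. With a common median the arms' medians moved to −0.34 (ATF4) and −0.50 (endoplasmic reticulum) in BV-173 and to 0.41 and 0.12 in SUP-B15. In SUP-B15 the endoplasmic reticulum arm, near 0, gave 0.13 with the 75th percentile filter and −0.14 with the mean of probe sets, and the ATF4 arm 0.57 with gene-specific probe sets. Gene-specific probe sets, with 19 members, gave 16 with the higher response in SUP-B15 and 10 lower in BV-173 but higher in SUP-B15 (45.8% and 20% of all genes), an alternative chosen after seeing the data. A moved median is one shifted by over 0.1. The cause of these shifts was not tested. Of 390 values of single members for STI571, 9 lost and 2 gained a call; of 390 between the lines, 13 and 3. The table gives no background or detection call, and the fitted errors were largest for the dim members DNAJC3, CHAC1 and VLDLR.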
